A study of Mus musculus with 42 samples.

Results

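Tbr1, Bcl11b, Fezf2, Sox5, Cux1, Neurod2, Neurod6, Slc17a6 and Slc17a7 are 9 genes that mark glutamatergic projection neurons of the cortex. They were taken by name, as textbook markers of deep layer neurons (Tbr1, Bcl11b, Fezf2 and Sox5), of upper layer neurons (Cux1), of differentiating excitatory neurons in general (Neurod2 and Neurod6) and of glutamate release (Slc17a6 and Slc17a7). The choice of these 9 genes was made with earlier results of these data known. They are 9 of 52489 gene lines that could be placed on the mouse genome, and all 9 were among the 17173 genes that passed the low count filter in the culture RNA-seq. Their RNA was read in 9 libraries of primary neuronal cultures, and the peaks that name them were read in 6 peak lists from adult hippocampus.

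Cortical glutamatergic neurons arise from dorsal progenitors, and their layer identity is set by transcription factors that act on each other. Fezf2 and Bcl11b (also called Ctip2) specify subcortically projecting neurons, Tbr1 specifies corticothalamic neurons and represses the subcerebral programme, Sox5 times the production of successive deep layer subtypes, and Cux1 shapes the dendrites and synapses of callosal upper layer neurons. NEUROD2 and NEUROD6 are basic helix-loop-helix factors that drive terminal differentiation, and VGLUT1 (from Slc17a7) and VGLUT2 (from Slc17a6) load glutamate into synaptic vesicles. Several of these genes also serve other cells: Bcl11b is a factor of striatal projection neurons, which are GABAergic, Sox5 acts in oligodendrocyte precursors and Cux1 is widely transcribed.

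Mice of 3 genotypes were compared, all on the same mixed DBA/2J x B6EiC3Sn/J background. Euploid mice were the controls. Ts65Dn mice, a model of Down syndrome, carry an extra chromosome made of distal chromosome 16 and a proximal piece of chromosome 17, so that genes outside the region shared with human chromosome 21 are also present in an extra copy. Ts65Dn;Brwd1+/- mice carry the same extra chromosome together with 1 repro5 mutant allele of Brwd1, a chromatin reader gene on the extra segment. None of the 9 genes lies on chromosome 16 or 17. Genes of the extra chromosome were not taken out of the marker lists used further on.

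The cultures were made from embryonic forebrain (the study's methods name the cortex) at embryonic day 16, with 3 libraries per genotype. AraC was added to hold back dividing glia. By the study's methods, the cells were grown on in culture for more than a week before they were collected for RNA-seq. SMARCA2/4 ChIP-seq, which maps the ATPases of the BAF chromatin remodelling complex, used hippocampus of adult males of 6 to 8 weeks, with tissue of 2 animals pooled per library, and ATAC-seq, which maps open chromatin, used NeuN+ (neuronal) nuclei of adult male hippocampus. Each of these assays was deposited as 1 peak list per genotype, so that peak counts carry no replicate error.

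Some facts of the whole set of cultures touch every value given here. The libraries held 17270070 to 25892802 counts in genes. Brwd1 stood at 89.4 ± 3.66 CPM (a count scaled to its library's effective size, SD, n = 3) in euploid, 127 ± 2.13 CPM in Ts65Dn and 139 ± 12.3 CPM in the cultures labelled Ts65Dn;Brwd1+/-, so that its RNA goes against the labelled loss of an allele in the last group. All cultures are labelled as pooled from male and female embryos, yet Xist stood at 0.775 and 0.931 CPM on average in euploid and Ts65Dn and at 1780 CPM in the cultures labelled Ts65Dn;Brwd1+/-, in which the Y-linked Eif2s3y had no count, so sex and this genotype cannot be told apart. Ts65Dn replicate 3 stood apart from its replicates, with a summed level of 12 pan-neuronal genes of 1121 CPM against 2756 and 2436 CPM in Ts65Dn replicates 1 and 2, and fold changes and ratios of the 9 genes that it moved by over 1.5 times are also given without it.

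Pan-neuronal genes themselves differed between genotypes. Their summed level ran from 4238 to 5212 CPM in euploid, from 1121 to 2756 CPM in Ts65Dn and from 4638 to 5728 CPM in the cultures labelled Ts65Dn;Brwd1+/-. Of 12 genes of this list, 10 were lower in Ts65Dn than in euploid and 0 were higher, with a median log2 fold change of -1.25 against 0.04 over all genes tested. In bulk cultures fewer cells of a type and less RNA per cell cannot be told apart, and this holds for every fold change given here.

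A selection of regulatory DNA of the genes that lay under peaks of the adult hippocampus is shown first, since the peaks described further on refer to these stretches. Capitals mark CAGATG and CAGCTG, both of the CANNTG form of E-box that NEUROD factors bind, and the T-box core GGTGTGA, on either strand, so that CATCTG and TCACACC are the same motifs read from the other strand. The build is GRCm38.p6 (mm10), RefSeq gave a promoter window for 9 of 9 genes, and sequences run 5′ to 3′ on the strand of the gene. The first 3 are the 250 bases before a RefSeq transcript start: Neurod2, chr11:98329646-98329895, minus strand, under an ATAC peak in both trisomic genotypes from base 145 (Ts65Dn) and base 134 (Ts65Dn;Brwd1+/-) to the end; Neurod6, chr6:55681264-55681513, minus strand, under an ATAC peak in all 3 genotypes, from base 197, 183 and 179 in euploid, Ts65Dn and Ts65Dn;Brwd1+/-; and Slc17a6, chr7:51621580-51621829, plus strand, whose bases 176 to 238 lay under its single euploid SMARCA2/4 peak.
Neurod2 promoter: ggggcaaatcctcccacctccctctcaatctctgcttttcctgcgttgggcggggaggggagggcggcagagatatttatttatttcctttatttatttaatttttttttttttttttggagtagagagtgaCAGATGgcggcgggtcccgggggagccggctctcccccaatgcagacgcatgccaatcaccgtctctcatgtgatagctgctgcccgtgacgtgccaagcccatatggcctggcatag
Neurod6 promoter: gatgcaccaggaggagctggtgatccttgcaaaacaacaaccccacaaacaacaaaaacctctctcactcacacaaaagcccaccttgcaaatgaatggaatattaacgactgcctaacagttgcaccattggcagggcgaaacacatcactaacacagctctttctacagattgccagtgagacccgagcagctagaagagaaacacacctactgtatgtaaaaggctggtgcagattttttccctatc
Slc17a6 promoter: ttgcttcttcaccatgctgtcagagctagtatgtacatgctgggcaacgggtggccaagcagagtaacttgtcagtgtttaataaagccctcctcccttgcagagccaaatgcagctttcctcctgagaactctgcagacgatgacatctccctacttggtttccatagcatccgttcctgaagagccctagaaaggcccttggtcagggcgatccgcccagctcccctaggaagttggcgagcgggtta
The next 3 are 200 base stretches, free of annotated exons, at the centre of an ATAC peak that all 3 genotypes shared. Such stretches were taken at Slc17a7, Sox5 and Bcl11b alone. Of 5 there, these 3 were picked since they lay wholly under the peak in each genotype. They lie upstream of Slc17a7 (chr7:45162191-45162390, plus strand), in an intron of Sox5 (chr6:144596896-144597095, minus strand) and in an intron of Bcl11b (chr12:107961140-107961339, minus strand).
Slc17a7 upstream: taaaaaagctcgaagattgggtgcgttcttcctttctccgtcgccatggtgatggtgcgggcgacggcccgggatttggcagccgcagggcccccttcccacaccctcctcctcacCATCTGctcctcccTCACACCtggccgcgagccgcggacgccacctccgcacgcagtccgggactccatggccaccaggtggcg
Sox5 intron: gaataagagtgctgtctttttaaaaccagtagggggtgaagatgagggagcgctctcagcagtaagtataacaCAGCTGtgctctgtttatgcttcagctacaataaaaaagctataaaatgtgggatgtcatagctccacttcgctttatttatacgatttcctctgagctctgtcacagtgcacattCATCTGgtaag
Bcl11b intron: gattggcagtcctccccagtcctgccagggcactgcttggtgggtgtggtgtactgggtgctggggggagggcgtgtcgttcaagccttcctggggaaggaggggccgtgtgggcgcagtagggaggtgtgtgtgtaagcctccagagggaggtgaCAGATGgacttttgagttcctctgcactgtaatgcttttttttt
CAGATG was present in the Neurod2 promoter and in the 3 open stretches shown, but not in the rest of the 5. In the Neurod2 promoter it lay before the start of the Ts65Dn ATAC peak at base 145. Its first letter lay just before base 134, where the Ts65Dn;Brwd1+/- peak started. CAGCTG was in the Sox5 stretch and in a Bcl11b stretch not shown, and GGTGTGA in the Slc17a7 stretch. No printed match overlapped another. Matches of this kind are common: among 32851 RefSeq promoter windows of 300 bases, 17.2% held CAGATG, 16.3% held CAGCTG and 3.98% held GGTGTGA, and among 15479 windows of 200 bases centred on euploid ATAC peaks the shares were 16.3%, 13.5% and 2.38%. A match is a description of the letters, and no binding was measured there.

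The first comparison asked how RNA of the identity genes differed between Ts65Dn and euploid cultures. Of the 9 genes, 7 were lower and 1, Cux1, was higher in Ts65Dn at an adjusted p under 0.05 (edgeR quasi-likelihood test, Benjamini-Hochberg over all 17173 genes). All 4 deep layer genes and both NEUROD factors were among the lower genes, as was Slc17a7, while Slc17a6 did not pass. Calls were common in this comparison: 46.7% of all genes passed, 21.1% lower and 25.6% higher. Libraries of the 2 genotypes did not overlap for 8 of the 9 genes and for 56.8% of all genes. Without Ts65Dn replicate 3 the same 8 genes passed, with fold changes nearer to 0 for each of them.

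The second comparison set the cultures labelled Ts65Dn;Brwd1+/- against Ts65Dn, and the third set them against euploid. The 3 comparisons share libraries and are not independent of each other. Against Ts65Dn, 7 of the 9 genes were higher and 0 were lower, where 58.1% of all genes passed and 27.6% were higher. Groups did not overlap for 7 of the 9 genes and for 68.4% of all genes. Against euploid, Bcl11b, Sox5 and Cux1 were higher and 0 genes were lower (also 0 at an unadjusted p under 0.05), where 29.2% of all genes passed and 14% were higher. Here the groups did not overlap for 5 of the 9 genes, 3 higher and 2 lower (Neurod6 and Slc17a6), and for 45.9% of all genes.

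**Figure D1:**
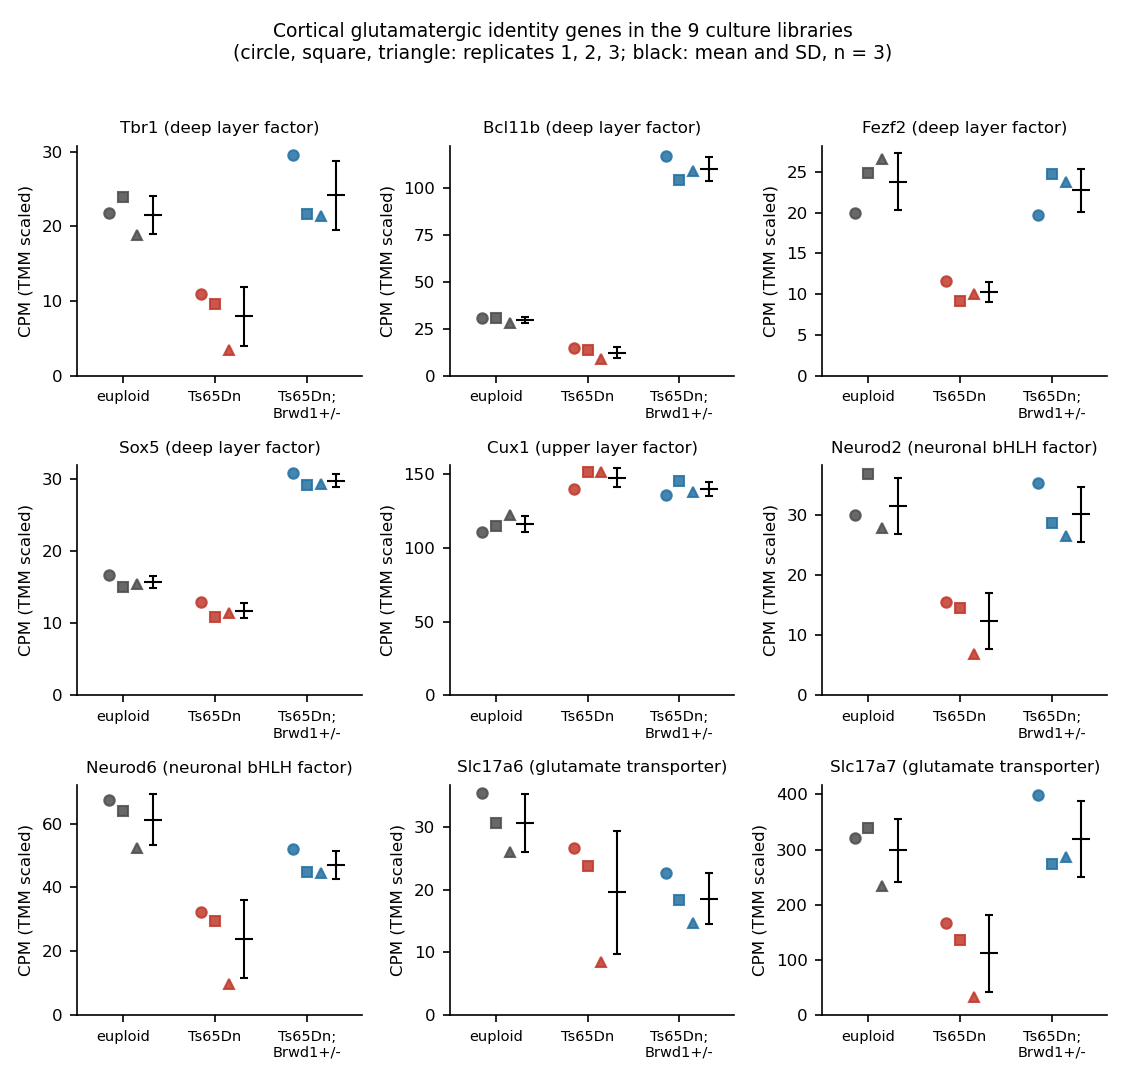
Level of each gene in CPM (y axis, starting at 0 and scaled to each gene) in the 9 culture libraries by genotype, with circle, square and triangle for replicates 1, 2 and 3 and the mean and SD (n = 3) in black; the third genotype is as labelled. The Ts65Dn libraries lie below the euploid ones for every gene but Cux1, where they lie above, and Slc17a6, where the groups overlap.

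Among the deep layer factors, Tbr1 (chr2:61802930-61814114, plus strand) stood at 21.8, 24 and 18.9 CPM in the 3 euploid libraries, at 10.9, 9.58 and 3.44 CPM in the 3 Ts65Dn libraries and at 29.5, 21.6 and 21.4 CPM in those labelled Ts65Dn;Brwd1+/-. Every Ts65Dn library was below every other library, and Ts65Dn replicate 3 was the lowest. Tbr1 was 2.71-fold lower in Ts65Dn than in euploid (log2 fold change -1.44, SE 0.32, adjusted p = 0.00479), and -1.07 on the log2 scale without Ts65Dn replicate 3. It was higher in the cultures labelled Ts65Dn;Brwd1+/- than in Ts65Dn (1.60, SE 0.32, adjusted p = 0.00167) and overlapped euploid (0.16, SE 0.30, adjusted p = 0.729).

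Bcl11b (chr12:107910403-108003602, minus strand) stood at 30.5, 30.6 and 28.1 CPM in euploid, at 14.6, 13.8 and 8.78 CPM in Ts65Dn and at 117, 104 and 109 CPM in the cultures labelled Ts65Dn;Brwd1+/-. The 3 groups did not overlap, and the last stood far above both others. The Ts65Dn value was 2.40-fold lower than the euploid one (log2 fold change -1.26, SE 0.16, adjusted p = 0.000223). The cultures labelled Ts65Dn;Brwd1+/- exceeded Ts65Dn by 3.15 on the log2 scale (SE 0.16, adjusted p = 5.35e-07) and euploid by 1.89 (SE 0.15, adjusted p = 2.55e-05), the largest difference from euploid of the 9 genes. Summed RNA of 12 GABAergic neuron markers moved with it, at 650.3 to 728.9 CPM in euploid, 221.6 to 311.4 CPM in Ts65Dn and 1135 to 1235 CPM in the cultures labelled Ts65Dn;Brwd1+/-, with none of the 12 at 0 throughout a genotype and, against euploid, 8 of 12 higher. Whether GABAergic cells carry the Bcl11b difference was not tested.

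Fezf2 (chr14:12342094-12348189, minus strand) stood at 19.9, 24.9 and 26.6 CPM in euploid, at 11.6, 9.14 and 9.97 CPM in Ts65Dn and at 19.7, 24.7 and 23.8 CPM in the cultures labelled Ts65Dn;Brwd1+/-. Each Ts65Dn library was low, with Ts65Dn replicate 3 between its replicates, and the other genotypes overlapped. The value fell by 1.21 on the log2 scale in Ts65Dn against euploid (SE 0.14, adjusted p = 0.00014) and was much the same without Ts65Dn replicate 3 (-1.19). Against Ts65Dn the cultures labelled Ts65Dn;Brwd1+/- were higher by 1.14 (SE 0.14, adjusted p = 7.82e-05), and against euploid the difference was -0.07 (SE 0.13, adjusted p = 0.744).

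Sox5 (chr6:143828425-144781977, minus strand) had the smallest drop of the deep layer genes. It stood at 16.7, 15.1 and 15.4 CPM in euploid, at 12.9, 10.9 and 11.4 CPM in Ts65Dn and at 30.9, 29.2 and 29.3 CPM in the cultures labelled Ts65Dn;Brwd1+/-. The 3 groups did not overlap and replicates lay close together. In Ts65Dn it was lower than in euploid (log2 fold change -0.42, SE 0.09, adjusted p = 0.0033), and in the cultures labelled Ts65Dn;Brwd1+/- it was above Ts65Dn (1.34, SE 0.09, adjusted p = 1.72e-06) and above euploid (0.92, SE 0.08, adjusted p = 5.14e-05). The 12 oligodendrocyte lineage markers summed to 165.6 to 191.3 CPM in euploid, 200 to 229.7 CPM in Ts65Dn and 467.0 to 568.3 CPM in the cultures labelled Ts65Dn;Brwd1+/-, with none of the 12 at 0 throughout a genotype. Of the 11 tested, 8 were higher and 2 lower in those libraries than in euploid, and the part of these cells in the Sox5 result was not tested. The annotated antisense gene Sox5os1 shares 1330 exon bases with Sox5 but held 0.00619 CPM on average.

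Cux1 (chr5:136248135-136567490, minus strand), the upper layer gene of the set, went the other way. It stood at 111, 115 and 122 CPM in euploid, at 140, 151 and 151 CPM in Ts65Dn and at 136, 145 and 138 CPM in the cultures labelled Ts65Dn;Brwd1+/-. Both trisomic groups were above every euploid library and overlapped each other. Cux1 was 1.27-fold higher in Ts65Dn than in euploid (log2 fold change 0.34, SE 0.07, adjusted p = 0.00303) and higher in the cultures labelled Ts65Dn;Brwd1+/- than in euploid (0.27, SE 0.07, adjusted p = 0.0156), a call lost without the low count filter (adjusted p = 0.0752) or without Ts65Dn;Brwd1+/- replicate 2 (0.0753) or 3 (0.0597). Between the trisomic groups the difference was -0.08 (SE 0.07, adjusted p = 0.37).

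Both NEUROD genes were lower in Ts65Dn. Neurod2 (chr11:98325415-98329648, minus strand) stood at 30.1, 36.8 and 27.8 CPM in euploid, at 15.6, 14.6 and 6.97 CPM in Ts65Dn and at 35.3, 28.7 and 26.5 CPM in the cultures labelled Ts65Dn;Brwd1+/-. Its Ts65Dn libraries were the lowest and the other genotypes overlapped. The log2 fold change was -1.35 in Ts65Dn against euploid (SE 0.25, adjusted p = 0.00205), or -1.06 without Ts65Dn replicate 3, 1.28 against Ts65Dn (SE 0.25, adjusted p = 0.00157) and -0.07 against euploid (SE 0.24, adjusted p = 0.87) in the cultures labelled Ts65Dn;Brwd1+/-.

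Neurod6 (chr6:55677822-55681263, minus strand) stood at 67.4, 64.1 and 52.4 CPM in euploid, at 32.4, 29.5 and 9.80 CPM in Ts65Dn and at 52.0, 44.7 and 44.5 CPM in the cultures labelled Ts65Dn;Brwd1+/-. The groups did not overlap, and the latter lay between the others. Neurod6 was lower in Ts65Dn than in euploid (log2 fold change -1.36, SE 0.33, adjusted p = 0.00778), and -0.99 without Ts65Dn replicate 3. Against Ts65Dn the cultures labelled Ts65Dn;Brwd1+/- were higher by 0.98 (SE 0.33, adjusted p = 0.0271), or by 0.60 without Ts65Dn replicate 3 (adjusted p = 0.000955), a call that was lost in a fit of the trisomic genotypes alone (adjusted p = 0.0627) and without any single one of the Ts65Dn;Brwd1+/- libraries (adjusted p = 0.0503 to 0.0759). Against euploid the difference was -0.38 (SE 0.32, adjusted p = 0.421), which passed (adjusted p = 0.0122) when Ts65Dn replicate 3 was left out of the fit and the estimate of spread with it.

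Of the vesicular glutamate transporters, Slc17a7 (chr7:45163949-45176142, plus strand) was the most abundant of the 9 genes and the most variable. It stood at 321, 340 and 234 CPM in euploid, at 166, 136 and 33.4 CPM in Ts65Dn and at 399, 273 and 287 CPM in the cultures labelled Ts65Dn;Brwd1+/-. Ts65Dn was below the others in every library, and replicate 3 held the lowest level of all 9 libraries. It was 2.67-fold lower in Ts65Dn than in euploid (log2 fold change -1.42, SE 0.45, adjusted p = 0.0259), and -0.98 without Ts65Dn replicate 3, while the call was lost without euploid replicate 1 (adjusted p = 0.0692) or 2 (adjusted p = 0.0757). The cultures labelled Ts65Dn;Brwd1+/- were above Ts65Dn (1.51, SE 0.45, adjusted p = 0.0151, but 0.052 without Ts65Dn;Brwd1+/- replicate 1) and overlapped euploid (0.10, SE 0.44, adjusted p = 0.896).

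Slc17a6 (chr7:51622006-51671119, plus strand) did not pass in any of the 3 comparisons. It stood at 35.4, 30.6 and 26.0 CPM in euploid, at 26.6, 23.8 and 8.39 CPM in Ts65Dn and at 22.7, 18.4 and 14.7 CPM in the cultures labelled Ts65Dn;Brwd1+/-. Ts65Dn overlapped both others, and the cultures labelled Ts65Dn;Brwd1+/- were all below euploid. The differences were -0.65 for Ts65Dn against euploid (SE 0.34, adjusted p = 0.143), -0.08 between the trisomic groups (SE 0.34, adjusted p = 0.863) and -0.72 for the cultures labelled Ts65Dn;Brwd1+/- against euploid (SE 0.34, adjusted p = 0.141). The first passed in 5 of 20 alternatives, counting DESeq2 at a wider threshold of 0.1 (adjusted p = 0.099). With RUVr normalization, which the authors used, it was -0.75 (adjusted p = 0.000247), and without the low count filter -0.68 (adjusted p = 0.0133). With the replicate numbers as pairs, in a fit of euploid and Ts65Dn alone, it became -0.80 (adjusted p = 0.0373). Without Ts65Dn replicate 3 it was -0.28 (adjusted p = 0.202). Leaving out Ts65Dn replicate 3 brought the last of the 3 differences past the threshold (adjusted p = 0.0026) and the second, at -0.44, too (adjusted p = 0.0398).

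**Figure D2:**
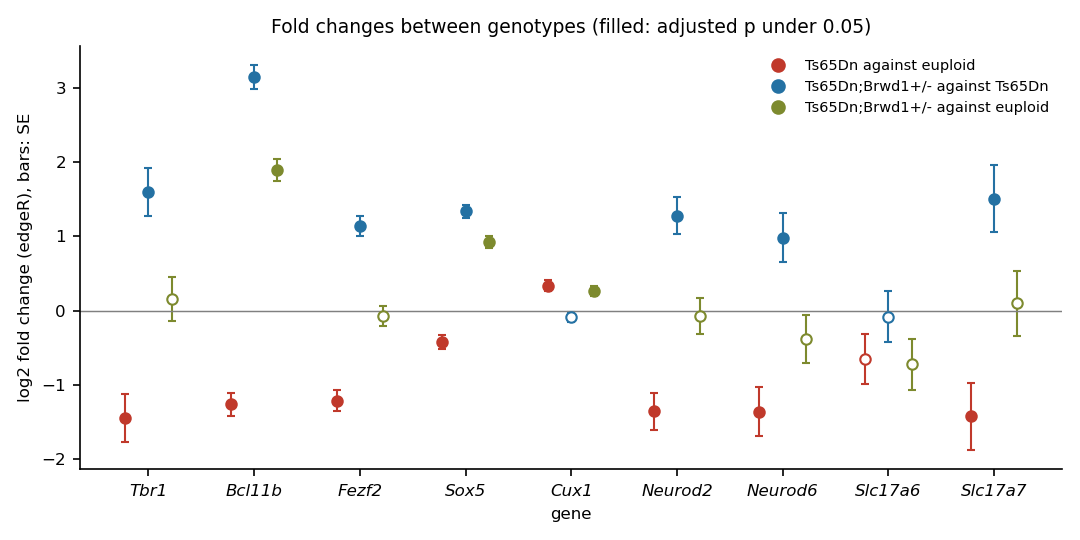
Log2 fold change of each gene (y axis, edgeR, bars: SE) in the 3 comparisons, filled where the adjusted p was under 0.05; the comparisons share libraries. Bcl11b reached 3.15 against Ts65Dn and 1.89 against euploid in the cultures labelled Ts65Dn;Brwd1+/-, and Slc17a6 is unfilled in all 3.

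Levels of different genes were compared per kilobase of exon. The length was the union of annotated exons, which is at least as long as any single transcript and so can understate a gene. In euploid the mean CPM per kb ran from Slc17a7 (55.3) through Neurod6 (28.5), Neurod2 (10.0), Fezf2 (7.82), Cux1 (5.79), Slc17a6 (5.68), Tbr1 (3.94) and Bcl11b (3.67) to Sox5 (1.10), and the ranges over libraries overlapped only for Cux1 with Slc17a6 and Tbr1 with Bcl11b among neighbours. In Ts65Dn Slc17a7 (20.7) and Neurod6 (11.1) were still first by their means, followed by Cux1 (7.35), but the ranges of all 3 overlapped and in Ts65Dn replicate 3 Slc17a7 (6.20) and Neurod6 (4.56) were below the lowest value of Cux1 (6.99). In the cultures labelled Ts65Dn;Brwd1+/- Slc17a7 (59.2) and Neurod6 (21.9) were followed by Bcl11b (13.6), which was eighth of 9 in euploid and whose range there did not overlap its neighbours Neurod6 and Neurod2 (9.60).

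The deep against upper layer question was put first to pairs of the 9 genes inside a library, where scaling between libraries drops out. The log2 ratio of Tbr1 to Cux1 was -2.35, -2.25 and -2.68 in euploid, -3.68, -3.96 and -5.42 in Ts65Dn and -2.20, -2.74 and -2.68 in the cultures labelled Ts65Dn;Brwd1+/-. The ratio of Bcl11b to Cux1 averaged -1.96 ± 0.13 in euploid, -3.59 ± 0.44 in Ts65Dn and -0.35 ± 0.13 in the cultures labelled Ts65Dn;Brwd1+/- (SD, n = 3), that of Fezf2 -2.29 ± 0.16, -3.84 ± 0.23 and -2.62 ± 0.14, and that of Sox5 -2.87 ± 0.13, -3.64 ± 0.18 and -2.22 ± 0.08. All 4 ratios were lower in Ts65Dn than in euploid in every library, by 1.93, 1.63, 1.55 and 0.77 for Tbr1, Bcl11b, Fezf2 and Sox5 on the log2 scale. Against euploid, the cultures labelled Ts65Dn;Brwd1+/- had higher ratios of Bcl11b (1.61) and Sox5 (0.65), a lower ratio of Fezf2 (-0.33) and an overlapping ratio of Tbr1 (-0.11).

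In all, 6 ratios were tested over 3 comparisons, 18 tests in all, with two-sided exact permutation tests. With 3 against 3 libraries the smallest p is 0.1, adjusted 0.12, so that no ratio could pass. That smallest p was reached by 15 of the 18, those whose groups did not overlap. The exceptions were Tbr1 to Cux1 against euploid in the cultures labelled Ts65Dn;Brwd1+/- (exact p = 0.8) and Neurod2 to Neurod6 in Ts65Dn against euploid (exact p = 0.7) and in the cultures labelled Ts65Dn;Brwd1+/- against Ts65Dn (exact p = 0.4). The ratio of Slc17a6 to Slc17a7 was -3.17, -3.47 and -3.17 in euploid, -2.63, -2.51 and -1.98 in Ts65Dn and -4.13, -3.88 and -4.28 in the cultures labelled Ts65Dn;Brwd1+/-. VGLUT2 RNA was thus highest relative to VGLUT1 RNA in Ts65Dn and lowest in the cultures labelled Ts65Dn;Brwd1+/-, with no overlap between any 2 genotypes. Neurod2 to Neurod6 averaged -0.96 ± 0.18, -0.85 ± 0.31 and -0.65 ± 0.09 (SD, n = 3) in euploid, Ts65Dn and the cultures labelled Ts65Dn;Brwd1+/-. Without Ts65Dn replicate 3 its difference between Ts65Dn and euploid turned from 0.11 to -0.07, and that between the trisomic groups went from 0.20 to 0.38. Against euploid the cultures labelled Ts65Dn;Brwd1+/- were 0.31 higher in this ratio, with no overlap (exact p = 0.1, the smallest possible).

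Other deep and other upper layer genes, set against each other, did not repeat the split between Cux1 and the 4 deep layer genes. The mean log2 CPM of Tbr1, Bcl11b, Fezf2 and Sox5 minus that of Cux1 was -2.39 ± 0.09 in euploid, -3.86 ± 0.40 in Ts65Dn and -1.93 ± 0.09 in the cultures labelled Ts65Dn;Brwd1+/-. For 12 other deep layer genes minus 12 other upper layer genes it was -2.06, -2.12 and -2.07 in euploid, -1.98, -1.90 and -1.64 in Ts65Dn and -1.73, -1.59 and -1.46 in the cultures labelled Ts65Dn;Brwd1+/-. In the latter lists the Ts65Dn libraries were above euploid, not below, by 0.24 or by 0.14 without Ts65Dn replicate 3. With 1 of the 2 lists changed at a time, a step chosen after these values were seen, the Ts65Dn libraries stayed below euploid, by -0.49 for the 4 deep layer factors minus the other upper layer genes and by -0.74 for the other deep layer genes minus Cux1, with no overlap in either. With all 16 deep and 13 upper layer genes together the difference between Ts65Dn and euploid was -0.02, or -0.08 without Ts65Dn replicate 3, and that of the cultures labelled Ts65Dn;Brwd1+/- against euploid was 0.51. The direction for Ts65Dn thus turned only where both lists were changed, and a score of this kind was given no test.

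**Figure D3:**
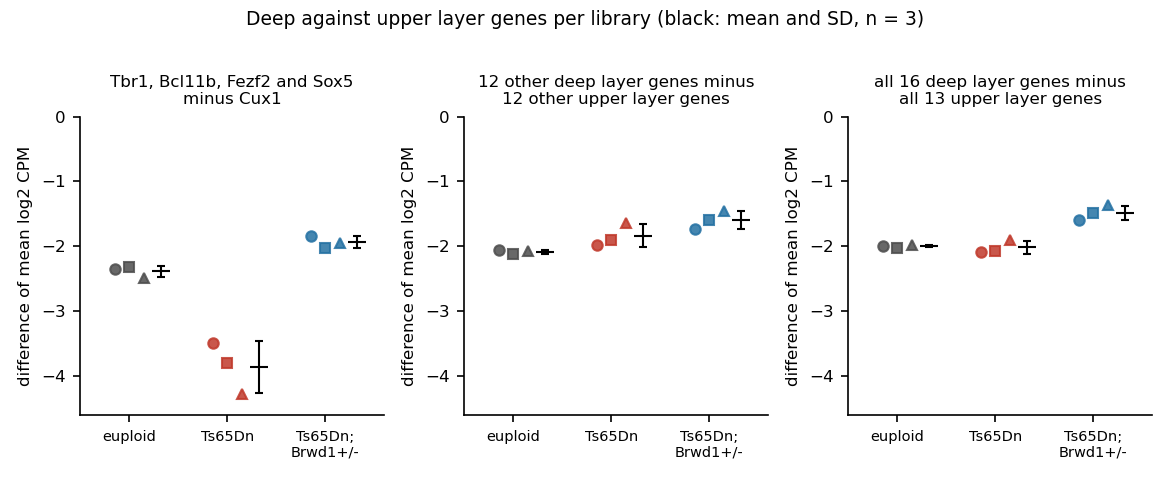
Difference of mean log2 CPM between deep and upper layer genes per culture library (y axis), for the 4 deep layer factors against Cux1 (left), for other genes of each class (middle) and for all genes of each class (right), with mean and SD (n = 3) in black. The Ts65Dn drop on the left, to a mean of -3.86 from -2.39, is not seen in the middle, where the Ts65Dn libraries lie between -1.98 and -1.64 and the euploid ones between -2.12 and -2.06.

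Of 12 other deep layer genes, 6 were lower and 1 higher in Ts65Dn than in euploid, with a median log2 fold change of -0.46. The ETS factor Etv1 of subcerebral neurons averaged 11.1, 4.56 and 28.9 CPM in euploid, Ts65Dn and the cultures labelled Ts65Dn;Brwd1+/- and fell by 1.28 in Ts65Dn (SE 0.17, adjusted p = 0.000311). The thyroid hormone binding protein gene Crym changed by -1.22 (SE 0.35, adjusted p = 0.017) and the calmodulin regulator gene Pcp4 by -0.85 (SE 0.18, adjusted p = 0.00372). Against Ts65Dn, 10 of the 12 were higher and 1 lower in the cultures labelled Ts65Dn;Brwd1+/- (median 0.98), and against euploid 6 were higher and 1 lower (median 0.57). The gene that went against the others was Ccn2, a secreted matrix protein that also marks subplate neurons and is made by fibroblasts, singled out after its values were seen, at 365 ± 15.9, 634 ± 142 and 151 ± 23.8 CPM in the 3 genotypes (SD, n = 3).

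Of 12 other upper layer genes, 7 were lower and 0 higher in Ts65Dn than in euploid (median -0.58), among them the netrin receptor gene Unc5d (-1.78, SE 0.29, adjusted p = 0.00105), the Ras exchange factor gene Rasgrf2 (-1.15, SE 0.30, adjusted p = 0.0109) and the LIM homeobox gene Lhx2 (-0.92, SE 0.10, adjusted p = 0.000135). Cux2, the paralogue of Cux1 and named for that after its values were seen, was lower as well, at 51.3 ± 6.05 CPM in euploid against 29.0 ± 3.57 CPM in Ts65Dn (SD, n = 3, log2 fold change -0.82, SE 0.11, adjusted p = 0.000352). Against Ts65Dn, 10 of these 12 were higher and 0 lower in the cultures labelled Ts65Dn;Brwd1+/- (median 0.62), and against euploid 2 were higher and 0 lower (median 0.03).

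Genes of the lineage and of the transmitter were also read. Of 8 other projection neuron genes, 7 were lower and 0 higher in Ts65Dn than in euploid (median -1.22), led by the bHLH factor gene Bhlhe22 (-1.95, SE 0.34, adjusted p = 0.00156), the calmodulin-binding neurogranin gene Nrgn (-1.75, SE 0.39, adjusted p = 0.00524) and the activity-regulated factor gene Mef2c (-1.35, SE 0.30, adjusted p = 0.00495). Against Ts65Dn, 7 were higher and 0 lower in the cultures labelled Ts65Dn;Brwd1+/- (median 1.18), and against euploid 2 were higher and 0 lower (median -0.18). Of 8 genes of glutamate supply, 5 were lower and 2 higher in Ts65Dn (median -0.55), with the neuronal glutamate transporter gene Slc1a1 at -1.26 (SE 0.36, adjusted p = 0.017), the glutaminase gene Gls2 at -1.11 (SE 0.25, adjusted p = 0.00505) and the aspartate aminotransferase gene Got1 at -0.80 (SE 0.14, adjusted p = 0.0017). The corresponding counts were 4 higher and 2 lower against Ts65Dn and 0 higher and 3 lower against euploid in the cultures labelled Ts65Dn;Brwd1+/-.

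Of 9 dorsal progenitor genes, 7 were tested and 5 of them were lower and 1 higher in Ts65Dn than in euploid. Eomes (Tbr2), the T-box factor of intermediate progenitors that precedes Tbr1, averaged 2.64 ± 0.589 CPM in euploid, 0.292 ± 0.176 CPM in Ts65Dn and 11.4 ± 1.40 CPM in the cultures labelled Ts65Dn;Brwd1+/- (SD, n = 3). Its log2 fold change was -3.20 in Ts65Dn against euploid (SE 0.33, adjusted p = 7.31e-05) and 2.11 in the cultures labelled Ts65Dn;Brwd1+/- against euploid (SE 0.20, adjusted p = 6.3e-05). Neurod1, the next factor of this lineage, changed by -1.62 in Ts65Dn (SE 0.27, adjusted p = 0.00123). Pax6, made by dorsal radial glia and by astrocytes in culture, was the higher gene, at 70.6 ± 8.28, 155 ± 16.4 and 62.8 ± 6.86 CPM in the 3 genotypes (log2 fold change 1.14 in Ts65Dn, SE 0.12, adjusted p = 7.23e-05). In the cultures labelled Ts65Dn;Brwd1+/- 4 of the 7 were higher and 2 lower against Ts65Dn, and 2 were higher and 2 lower against euploid.

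The identity genes were next set against the 12 pan-neuronal genes of the same library, which include Tubb3 (neuronal tubulin, -1.55 in Ts65Dn against euploid, SE 0.37, adjusted p = 0.00721), Dcx (a microtubule protein of young neurons, -1.49, SE 0.20, adjusted p = 0.000346) and Syt1 (the vesicle calcium sensor, -1.40, SE 0.33, adjusted p = 0.00635). On this scale, log2 CPM minus the mean log2 CPM of the list, Bcl11b, Fezf2, Neurod2 and Slc17a7 overlapped between Ts65Dn and euploid, with mean differences of -0.06, 0.02, -0.19 and -0.47. Ts65Dn replicate 3 carried part of this: without it the differences were -0.29, -0.42, -0.28 and -0.20, and Bcl11b and Neurod2 were lower in both remaining libraries than in every euploid one. Tbr1 stayed lower in every Ts65Dn library, at -3.80, -3.79 and -3.98 against -3.59, -3.38 and -3.53 in euploid, a mean difference of -0.36. Neurod6 stayed lower too (-0.30). Sox5, Cux1 and Slc17a6 were higher relative to pan-neuronal genes in every Ts65Dn library, by 0.80, 1.57 and 0.43, or by 0.36, 1.10 and 0.50 without Ts65Dn replicate 3.

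Relative to pan-neuronal genes, the cultures labelled Ts65Dn;Brwd1+/- differed from euploid for Bcl11b (1.80 higher), Sox5 (0.84 higher), Neurod6 (-0.45) and Slc17a6 (-0.81), each with no overlap, and overlapped for the other 5 genes. Slc17a6 stood at -3.68, -3.69 and -4.04 there against -2.89, -3.03 and -3.07 in euploid and -2.51, -2.49 and -2.72 in Ts65Dn. These are descriptions with no test, since the list was chosen with earlier results of these data known.

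**Figure D4:**
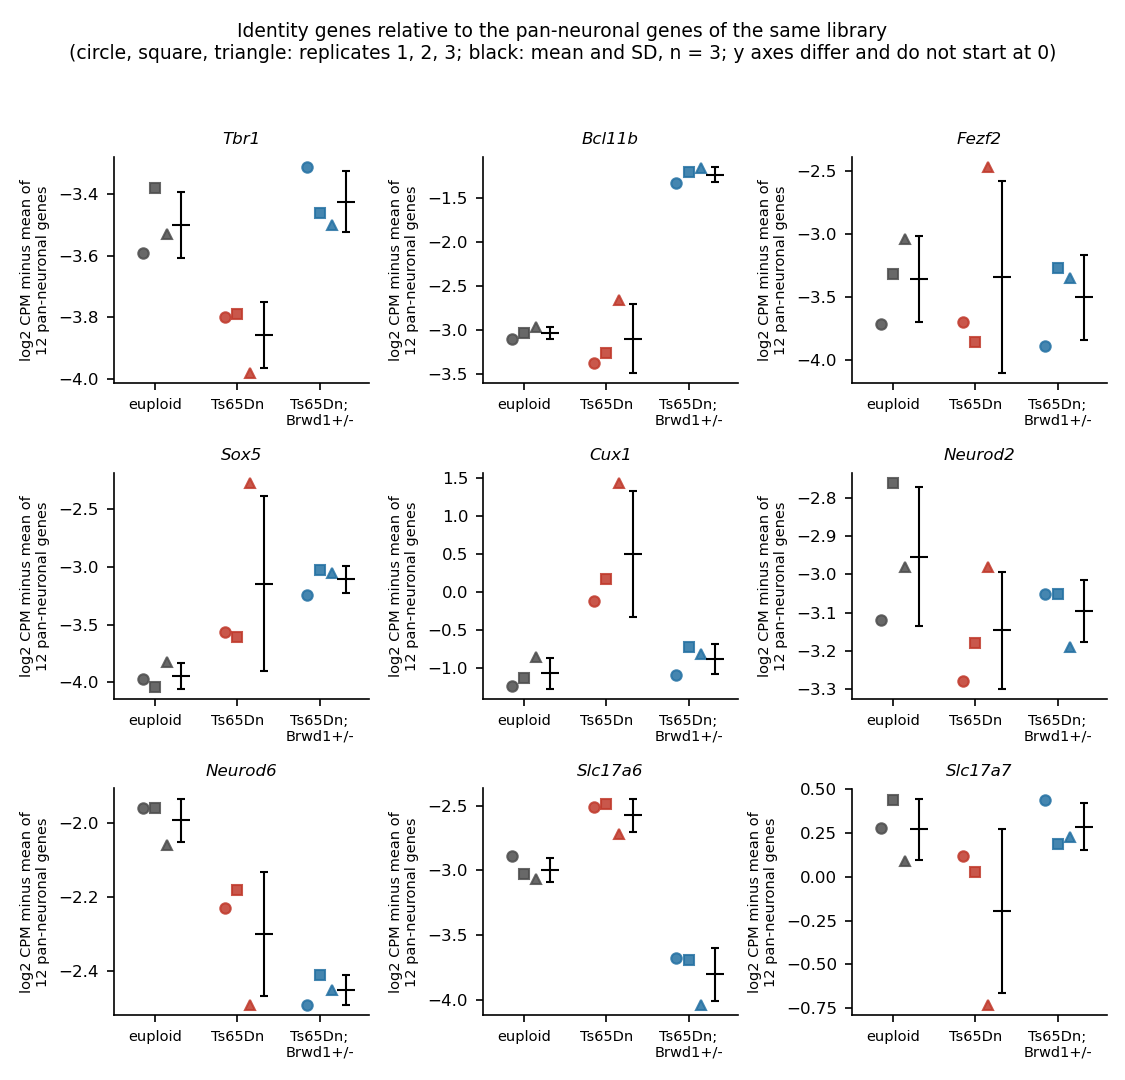
Log2 CPM of each gene minus the mean log2 CPM of 12 pan-neuronal genes in the same culture library (y axes differ and do not start at 0), with mean and SD (n = 3) in black. Bcl11b lies between -1.33 and -1.16 in the cultures labelled Ts65Dn;Brwd1+/- and between -3.37 and -2.65 in all others, and Ts65Dn replicate 3 is highest of its group for Bcl11b, Fezf2, Sox5, Cux1 and Neurod2 and lowest for the other 4 genes.

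Other cell types varied beside these genes. GABAergic markers were lower in Ts65Dn than in euploid for 11 of 12 genes (median -1.60), such as Calb2 (-2.33, SE 0.16, adjusted p = 4.93e-06), Gad2 (-1.89, SE 0.20, adjusted p = 8.75e-05) and Slc32a1 (-1.74, SE 0.21, adjusted p = 0.000194), so lower levels were also seen outside the glutamatergic genes. Of 12 diencephalon and midbrain factors, 10 were tested, and 8 were higher and 1 lower in Ts65Dn, with a summed level of 348.6 to 468.0 CPM against 54.56 to 69.29 CPM in euploid and 75.23 to 95.19 CPM in the cultures labelled Ts65Dn;Brwd1+/-. Irx2, Barhl2 and Irx1, factors of caudal neural territories, rose by 7.48, 7.03 and 6.73 on the log2 scale (SE 0.25, 0.42 and 0.25, adjusted p = 1.69e-07, 2.53e-06 and 3.18e-07). The part of a different regional makeup in the identity gene values was not tested, and brain region as dissected and genotype cannot be told apart in these libraries.

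Non-neuronal lists moved less evenly. Astrocyte markers summed to 5104 to 6149, 5999 to 6856 and 5524 to 6385 CPM in euploid, Ts65Dn and the cultures labelled Ts65Dn;Brwd1+/-, with 6 of 12 higher (Aqp4 by 1.43 and Aldh1l1 by 1.16) and 3 lower (Slc1a2, -0.98) in Ts65Dn against euploid. Of 11 oligodendrocyte lineage genes tested, 4 were higher, such as Cspg4 (1.40) and Myrf (0.83), and 1 lower (Mog, -0.95). Fibroblast and vessel markers summed to 382.8 to 490.7 CPM in euploid, 940.6 to 1502 CPM in Ts65Dn and 255.7 to 311.2 CPM in the cultures labelled Ts65Dn;Brwd1+/-, with 6 of 10 tested genes higher and 3 lower in Ts65Dn, Mmp2 by 3.96, Postn by 3.56 and Dcn by -3.23, and the endothelial Cldn5 at 0 in every library. Microglial markers summed to 27.09 to 37.76, 44.14 to 54.02 and 18.33 to 25.16 CPM, with 1 of 7 tested higher and 2 lower (Aif1, -1.78, and Csf1r, -0.86) in Ts65Dn. Each gene given with a fold change here passed at an adjusted p under 0.05, and the part of these cells in the identity gene values was not tested.

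Genes with the most similar pattern were sought among 14259 protein-coding genes by the root mean square difference of log2 CPM, each gene centred on its mean over the 9 libraries. Slc45a1 (0.06), Slit1 (0.07) and Mpped1 (0.07) were nearest to Tbr1, Trim46 (0.07), Chd5 (0.08) and Neurl1b (0.08) to Neurod2, Syt16 (0.06), Dlg2 (0.06) and Nrip3 (0.07) to Neurod6, and Stum (0.09) and Spock1 (0.11) to Slc17a7. Nearest to Cux1 were Sdhc, Kmt5a and Rpl7l1 (0.04 each), whose levels also varied little. Sox5 was nearest to Slc13a3 (0.09), Map2k6 (0.10) and Glul (0.11), the last being glutamine synthetase of astrocytes. Matches were looser for Fezf2 (Abca8a 0.14, Hif3a and Disp3 0.18), Slc17a6 (Coch 0.14, Nefl and Dgkk 0.15) and Bcl11b (Grik3 0.21, Dlx5 and Stk32b 0.22), Dlx5 being a factor of GABAergic neurons. All patterns share the same 9 libraries and their neuronal content.

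The adult hippocampus was then read for peaks that the authors' annotation assigned to the 9 genes. Of 22667 euploid SMARCA2/4 peaks, 38 named 5 of the genes: 17 at Bcl11b, 9 at Slc17a7, 6 at Neurod2, 5 at Tbr1 and 1 at Slc17a6. No euploid SMARCA2/4 peak named Fezf2, Sox5, Cux1 or Neurod6. At least 1 such peak named 29.5% of all protein-coding genes, and as many peaks as at Bcl11b or more were found at 0.303% of them. In Ts65Dn the list held 1290 peaks and 1 of them named a gene of the set (Slc17a7), where 3.26% of protein-coding genes were named. In Ts65Dn;Brwd1+/- it held 1873 peaks and 3 named Bcl11b, Sox5 and Slc17a7, where 3.73% were named.

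The loss of listed peaks was general. Of the 5 genes with a euploid SMARCA2/4 peak, 4 had none in Ts65Dn, and so did 90.1% of all genes with a euploid peak. In Ts65Dn;Brwd1+/-, 2 of the 5 had at least 1 peak, against 11.4% of such genes. None of the 38 euploid peaks overlapped a SMARCA2/4 peak of either trisomic genotype by even 1 base, where 2.67% (Ts65Dn) and 3.82% (Ts65Dn;Brwd1+/-) of all euploid SMARCA2/4 peaks did, so that such an overlap was rare throughout. Peak calling quality differed between the lists, since 87.8% of euploid, 31.8% of Ts65Dn and 58.2% of Ts65Dn;Brwd1+/- SMARCA2/4 peaks had a q under 0.05, and its part in the counts was not tested.

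At Slc17a7 the strongest euploid SMARCA2/4 peaks lay upstream (chr7:45162355-45162664, fold enrichment 5.19, q = 8.83e-09), covering bases 165 to 200 of the open stretch printed above, and on an exon (chr7:45168976-45169060, 5.15, q = 6.2e-07). The single Ts65Dn peak of the gene was intronic at chr7:45167487-45167600 (3.48, q = 0.183), and that of Ts65Dn;Brwd1+/- at chr7:45167692-45167748 (3.82, q = 0.0376). At Bcl11b 16 of the 17 euploid peaks were intronic and 1 was upstream, with fold enrichments from 2.87 to 4.52, and 13 of 17 had a q under 0.05. Its peak in Ts65Dn;Brwd1+/- had a q of 0.0786.

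At Tbr1 4 of 5 euploid SMARCA2/4 peaks overlapped exons, the strongest at chr2:61804221-61804409 (4.32, q = 0.00014), and 3 of 5 had a q under 0.05. At Neurod2 all 6 lay within or just downstream of the short gene, the strongest at chr11:98328565-98328697 in its intron (4.72, q = 5.67e-05), and 5 had a q under 0.05. The Slc17a6 peak (chr7:51621755-51621817, 4.47, q = 0.000208) lay on the promoter printed above. Sox5 had a peak in Ts65Dn;Brwd1+/- alone (chr6:144209730-144209777, 4.80, q = 0.00089), with 1 list per genotype and no test of that difference.

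**Figure D5:**
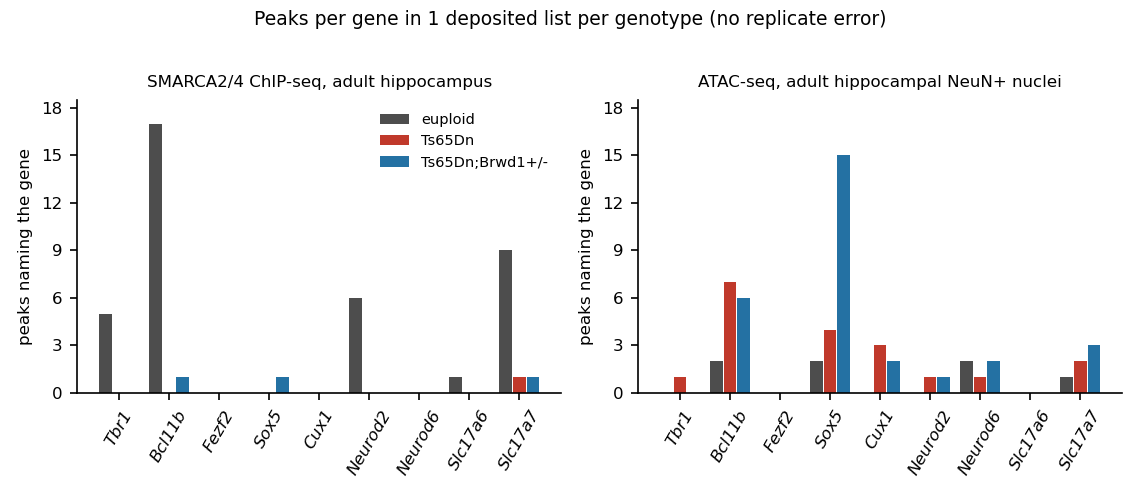
Number of listed peaks naming each gene (y axis) in SMARCA2/4 ChIP-seq of adult hippocampus (left) and ATAC-seq of adult hippocampal NeuN+ nuclei (right), 1 deposited list per genotype and so no error bars. SMARCA2/4 peaks are at most 1 per gene in both trisomic genotypes against 17 at Bcl11b in euploid, and Sox5 has 15 ATAC peaks in Ts65Dn;Brwd1+/- against 4 in Ts65Dn and 2 in euploid.

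Other lists give these counts their scale. All 8 other projection neuron genes had euploid SMARCA2/4 peaks, 71 in all, against 1 in Ts65Dn and 0 in Ts65Dn;Brwd1+/-, and the 12 pan-neuronal genes had 66, 2 and 4 peaks in the same order, at 10, 2 and 2 of them. Other deep layer genes had 7, 1 and 2 peaks and other upper layer genes 26, 1 and 2. The 12 GABAergic genes had 0 in each list.

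ATAC peaks went the other way in number. The lists held 15521, 29195 and 30244 peaks in euploid, Ts65Dn and Ts65Dn;Brwd1+/-, of which 7, 19 and 29 named genes of the set. They named 4, 7 and 6 of the 9 genes, where 41.4%, 52.3% and 52.2% of protein-coding genes were named. Fezf2 and Slc17a6 had no ATAC peak in any list. All 7 euploid peaks overlapped a peak of Ts65Dn and one of Ts65Dn;Brwd1+/-, as did 96.7% and 96.2% of all euploid ATAC peaks.

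Sox5 had 2, 4 and 15 ATAC peaks in euploid, Ts65Dn and Ts65Dn;Brwd1+/-, or 0.210, 0.419 and 1.57 per 100 kb of this long gene. A gain of 11 peaks or more from Ts65Dn to Ts65Dn;Brwd1+/- was found at 4 of 21806 protein-coding genes, 0.0183%. Of the 15 peaks, 11 were intronic, 2 overlapped exons, 1 lay over an annotated transcript start and 1 upstream. The peak over the intronic stretch printed above had the highest fold enrichment of them, 4.95, against 4.09 in Ts65Dn and 3.45 in euploid. The other peak that all 3 genotypes shared did not follow this order, with fold enrichments of 3.75, 4.99 and 3.68 for euploid, Ts65Dn and Ts65Dn;Brwd1+/-, and the peak shared by the trisomic genotypes alone had 4.19 and 3.94. Sox5 RNA in the embryonic cultures was highest in the same genotype label, in another tissue, age and set of animals, and a link between them was not tested.

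Bcl11b had 2, 7 and 6 ATAC peaks in the same order, and its shared intronic peak had fold enrichments of 3.37, 3.58 and 3.29 and its shared upstream peak 2.58, 2.69 and 3.03. At Slc17a7 the shared upstream peak had fold enrichments of 3.47, 4.55 and 3.59, and the gene had 1, 2 and 3 peaks. The Neurod6 promoter was open in all 3 genotypes (3.78, 3.61 and 3.96), and that of Neurod2 was listed as open in the trisomic genotypes alone (3.43 and 3.10). Cux1 had 0, 3 and 2 peaks, and Tbr1 had 1 peak, in Ts65Dn, over an annotated transcript start (chr2:61804442-61804648, 2.85). Euploid had the shortest ATAC list, and how far list length sets the counts per gene was not tested.

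SMARCA2/4 and ATAC peaks of these genes rarely coincided. Of the 38 euploid SMARCA2/4 peaks, 2 overlapped a euploid ATAC peak, both upstream of Slc17a7, against 26.5% of all euploid SMARCA2/4 peaks. With the longer ATAC lists of Ts65Dn and Ts65Dn;Brwd1+/-, 4 and 5 of the 38 overlapped, against 44.7% and 44.1% of all. The ChIP-seq used whole hippocampus and the ATAC-seq sorted neuronal nuclei, and whether cell type accounts for the low overlap was not tested.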

How the data were processed

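RNA-seq of 9 primary neuronal cultures, SMARCA2/4 ChIP-seq of adult hippocampus and ATAC-seq of sorted hippocampal neuronal nuclei were used, from a series of 42 samples. The authors aligned reads to mm10 with HISAT2 and deposited raw counts per gene (featureCounts is named in the study's methods, while the files end in 5 summary lines of another counter, holding 37.4 to 40.0% of counts, which were left out here). Whether counting used strand is not given in the sources used here. For ChIP-seq and ATAC-seq the authors called peaks with MACS, annotated them to genes, and deposited a fold enrichment, a linear ratio over background, and a q-value per peak. The methods state a filter at an FDR of 0.05, which the SMARCA2/4 lists do not meet, and how replicates were combined is not given in the sources used here. Peak coordinates are those of the files.

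Counts were tested with edgeR 4.0.16 (R 4.3.3): filterByExpr, TMM scaling, quasi-likelihood F-tests in 1 fit of all 9 libraries by genotype, and Benjamini-Hochberg adjustment over 17173 genes at 0.05, which was tested on simulated data first. CPM are TMM scaled, and log2 CPM used a prior count of 2. The labels do not say that replicates were separate animals. The study's methods state that cortices were dissociated individually and that animals were not pooled in molecular analyses, while the labels name pooled embryos. The p-values therefore measure the spread between these libraries. No 2 libraries of 1 genotype agreed within sampling noise. Libraries with the same number deviated together between euploid and Ts65Dn (r across genes 0.129, 0.207 and 0.263, all over 0.1), from the data and not the labels, but not in every pair of the other comparisons (0.279, -0.125 and 0.206 against Ts65Dn, 0.096, -0.162 and 0.186 against euploid), so the replicate block was an alternative.

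The 9 genes and the marker lists were chosen with earlier results of these data known. Besides the 9 genes, the text names from each list at most 3 genes called in Ts65Dn against euploid with the largest absolute fold change, the 3 genes nearest in pattern to each gene, and the genes that check the labels, and says where a gene was named after its values were seen. Some genes that this rule would name are not reported here. Alternatives were upper quartile and DESeq2 1.42.0 scaling, no filter or 10 counts in every library, each 2 genotypes alone, the replicate block, each library left out, RUVr with 1 factor, DESeq2, limma 3.58.1 (voom), other prior counts, stricter q and other peak overlaps. A fit of 2 genotypes alone with the block was added after seeing the data. The authors' RNA-seq comparisons used RUVr and DESeq2. Sequences are RefSeq's, GRCm38.p6.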

Additional observations from a re-analysis of the deposited data

How the results depend on the processing

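The number of genes of the set called in Ts65Dn against euploid ran from 7 to 9 over all alternatives, and in the cultures labelled Ts65Dn;Brwd1+/- against Ts65Dn from 5 to 8. Against euploid 3 became 5, with Neurod6 and Slc17a6 lower, when the genotypes compared were fitted alone, alone with the replicate block, or with RUVr, and leaving out single libraries gave 2 to 5. With the replicate block in the fit of all libraries 9, 7 and 4 genes of the set were called in the 3 comparisons, and over all genes 8349, 10268 and 5397 against 8017, 9980 and 5008. Between Ts65Dn and euploid, where the numbers paired the libraries, the block changed no other call of the set than that of Slc17a6. Slc17a6 between the trisomic genotypes, at -0.08, changed sign to 0.01 with the replicate block or RUVr, 0.04 with the block in a fit of these genotypes alone and 0.06 with limma-voom, and ran from -0.44 to 0.22 with single libraries left out. Against euploid in the cultures labelled Ts65Dn;Brwd1+/-, differences near 0 changed sign with single libraries left out: Fezf2 ran from -0.18 to 0.00, Tbr1 from -0.03 to 0.25, Neurod2 from -0.22 to 0.06 and Slc17a7 from -0.12 to 0.20. The ratio of Neurod2 to Neurod6 in Ts65Dn against euploid ran from -0.07 to 0.21, the lowest without Ts65Dn replicate 3. Calls near the threshold were lost for Slc17a7 in Ts65Dn against euploid without euploid replicate 1 (adjusted p = 0.0692) or 2 (adjusted p = 0.0757), for Slc17a7 against Ts65Dn without Ts65Dn;Brwd1+/- replicate 1 (adjusted p = 0.052), for Neurod6 against Ts65Dn in the trisomic genotypes alone (adjusted p = 0.0627) and without any of the 3 Ts65Dn;Brwd1+/- libraries (adjusted p = 0.0503 to 0.0759), and for Cux1 against euploid without the filter (adjusted p = 0.0752) or without Ts65Dn;Brwd1+/- replicate 2 (0.0753) or 3 (0.0597). Deep minus upper layer genes in Ts65Dn against euploid was -0.02 with all genes and 0.24 without Tbr1, Bcl11b, Fezf2, Sox5 and Cux1. For the cultures labelled Ts65Dn;Brwd1+/- against Ts65Dn it was 0.25 without these genes, in place of 0.53. SMARCA2/4 peaks naming the set at a q under 0.01 numbered 24 for euploid hippocampus, 0 for Ts65Dn and 1 for Ts65Dn;Brwd1+/-, and 0 for Ts65Dn at a q under 0.05. The cause of the shifts in this section was not tested.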
